A study of Mus musculus with 12 samples.

Results

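The expression of 10 genes that are used as markers of astrocytes or that carry out astrocyte functions was followed across 4 treatments of cultured mouse hippocampal cells. They are Gja1 and Gjb6 (connexins), Aqp4 (water channel), Slc1a2 (glutamate transporter), Glul, Aldh1l1 and Aldoc (metabolic enzymes), Gfap (intermediate filament), S100b (calcium-binding protein) and Sparcl1 (secreted matrix protein). They were chosen by gene name from the gene matrix, which holds 21312 loci, of which 19336 carry a gene name. The choice was made with earlier results of these data known, so counts of these 10 set against all genes are a description. All 10 were found, and all 10 passed the filter on low counts that left 15656 genes to test. Cultures came from the hippocampi of P4 wild-type (WT) mice and fell into 4 groups of 3 libraries. These groups were DAPT + sErbB4 (20 µM DAPT, then 20 nM sErbB4 for 4 h), DAPT (20 µM), sErbB4 (20 nM for 4 h) and vehicle. DAPT was added after 8 days in culture. DAPT blocks the protease γ-secretase, and sErbB4 is the soluble ectodomain of ErbB4, which binds Type III Nrg1 on neurons and starts signaling back into the Nrg1-bearing cell. DAPT + sErbB4 was compared with sErbB4 to ask what DAPT changes in stimulated cultures, and DAPT against vehicle asks the same of unstimulated cultures. Because DAPT was given before sErbB4, the first comparison takes in the whole time with DAPT and not only the 4 h of stimulation. Whether the DAPT effect differs with sErbB4 was tested as an interaction. The methods describe no step that sorted cell types, so each library holds the RNA of all cells in the wells.

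Astrocytes take up glutamate and potassium released by neurons, turn glutamate into glutamine, and are joined into a network by gap junctions. Gja1 encodes connexin 43 and Gjb6 connexin 30, the main connexins of these junctions in mouse astrocytes. γ-Secretase releases the intracellular domains of many membrane proteins, among them Nrg1 and Notch receptors. The Notch intracellular domain works in the nucleus together with the DNA-binding protein RBPJ, and Notch signaling is known for keeping neural stem cells undifferentiated and for promoting glial fates in the developing brain.

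The cultures are labelled as neuronal, and 8 of the 10 astrocyte genes ranked among the first 596 of the 15656 genes tested. Levels are given as CPM, the counts of named genes scaled to the same total in each library, after TMM scaling between libraries. The deposited counts have the form that a correction for transcript length would give, as described under the processing. On that basis CPM of different genes were taken as comparable per length, which was not tested. Gfap ranked 8th, with a mean of 4406 CPM over the 12 libraries. Sparcl1 ranked 26th at 1439 CPM, Glul 31st at 1210 CPM and Slc1a2 112th at 481 CPM. Gja1 (367 CPM), Aqp4 (256 CPM), Aldoc (173 CPM) and Aldh1l1 (154 CPM) followed at ranks 184 to 596, and S100b had 80.7 CPM (rank 1372). Gjb6 was the lowest at 15.3 CPM, at rank 7020. The levels of the 10 genes summed to between 7716 and 9625 CPM in a library, and those of 10 neuronal markers to between 1576 and 2128 CPM. Among defining neuronal markers, Rbfox3, the nuclear protein NeuN, averaged 27.6 ± 0.135 CPM in DAPT and 22.0 ± 0.941 CPM in vehicle cultures (SD, n = 3 each). Snap25, also a defining neuronal marker, averaged 191 ± 2.91 CPM in DAPT and 147 ± 8.82 CPM in vehicle.

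Library totals lay between 36518802 and 54350270 counts, of which 18697796 to 30777186 fell on named genes, and the ribosomal transcript Rn45s took 31.4 to 44.6% of the named-gene counts. Within a group, libraries correlated at r between 0.988 and 0.994 across genes. The library of sErbB4 replicate 1 stood apart on the second principal component, at -23.8 against 8.85 and 10.1 for the other sErbB4 libraries. Where leaving this library out changed a count of astrocyte or marker genes called in a comparison that used it, the count without it is given beside it. Nothing in the labels says that the 3 libraries of a group came from separate cultures. The study describes them as platings made from several mice and litters, and the p-values measure the spread between libraries.

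Levels of 4 genes changed beyond the thresholds used below both with DAPT against vehicle and with DAPT + sErbB4 against sErbB4. They are shown with a promoter that RefSeq places at a start of the gene. Each window is on the gene strand of GRCm38.p6, from 250 bases before to 50 bases after that start. γ-Secretase frees a partner of RBPJ, and the RBPJ motif can be looked for there. Capitals mark the motif GTGGGAA, searched on both strands. Gja1 lies at chr10:56377050-56377349 on the plus strand, Gjb6 at chr14:57133562-57133861 on the minus strand, Aldh1l1 at chr6:90550543-90550842 on the plus strand and Aldoc at chr11:78322823-78323122 on the plus strand.
Gja1: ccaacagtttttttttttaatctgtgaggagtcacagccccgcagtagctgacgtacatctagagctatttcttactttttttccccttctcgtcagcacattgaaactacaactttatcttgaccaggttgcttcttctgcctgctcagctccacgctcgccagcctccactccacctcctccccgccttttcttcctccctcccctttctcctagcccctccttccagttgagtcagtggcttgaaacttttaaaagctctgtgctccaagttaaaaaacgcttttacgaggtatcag
Gjb6: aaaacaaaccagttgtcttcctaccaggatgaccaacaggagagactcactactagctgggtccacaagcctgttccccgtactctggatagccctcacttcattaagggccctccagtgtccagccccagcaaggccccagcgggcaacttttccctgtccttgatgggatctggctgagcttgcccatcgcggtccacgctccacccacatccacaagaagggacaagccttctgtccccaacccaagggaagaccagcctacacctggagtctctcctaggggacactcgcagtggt
Aldh1l1: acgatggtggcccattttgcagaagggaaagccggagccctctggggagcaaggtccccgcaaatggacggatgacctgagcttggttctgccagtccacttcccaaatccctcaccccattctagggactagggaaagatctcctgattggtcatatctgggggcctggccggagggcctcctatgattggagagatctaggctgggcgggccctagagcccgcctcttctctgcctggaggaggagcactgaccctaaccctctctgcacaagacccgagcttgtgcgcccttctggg
Aldoc: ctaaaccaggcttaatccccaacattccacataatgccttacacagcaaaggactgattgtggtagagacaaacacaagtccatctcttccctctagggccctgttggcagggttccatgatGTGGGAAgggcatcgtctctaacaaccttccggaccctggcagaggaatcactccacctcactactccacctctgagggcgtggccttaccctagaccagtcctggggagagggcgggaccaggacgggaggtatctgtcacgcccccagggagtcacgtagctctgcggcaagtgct

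Of the 10 genes, 8 had an entry in the promoter table, with 9 windows in all because Aldoc has a second start. Aqp4 and Sparcl1 had none. The windows of Aldh1l1, Slc1a2 and Gfap lie inside the annotated spans of their genes, so any start further upstream was not searched. In the same order, these spans are chr6:90486427-90600203, chr2:102658659-102790784 and chr11:102887336-102900912. The RBPJ motif was found in both Aldoc windows and in no other. It begins 128 bases before the first Aldoc start and at base 17 after the second. Of all 32851 promoters of this length, 6.38% hold it. The STAT motif TTCNNNGAA, held by 8.3% of all promoters, was found in the Gfap window, beginning 2 bases before the start, and at 2 places in the second Aldoc window. TTGGCA, a short element of the NFI factors (14.1% of all promoters), was found in the S100b window and in the first Aldoc window. The palindromic NFI motif (0.0365%) and the SOX motif ACAAAG (18.7%) were found in none of the 9 windows. Both Aldoc windows therefore held a motif that the windows of Gja1, Gjb6 and Aldh1l1 lacked, and these matches are a description of the letters alone.

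Both connexin genes were higher with DAPT. Gja1 had 467, 439.5 and 454 CPM in the DAPT libraries, against 317, 290.1 and 285 CPM in the vehicle libraries. The groups did not overlap, and the lowest DAPT library stood above the highest vehicle library. The log2 fold change was 0.61 ± 0.05 (SE; 95% interval 0.49 to 0.73), with an adjusted p of 1.2e-05 in edgeR's quasi-likelihood test. Gjb6, the scarcer connexin, had 19.7, 21.8 and 20.0 CPM in DAPT, against 11.2, 12.5 and 9.78 CPM in vehicle. Its log2 fold change was the largest of the 10, at 0.88 ± 0.14 (0.57 to 1.20, edgeR adjusted p = 0.00096). Here too the groups did not overlap. The Gja1 gene spans chr10:56377330-56402513 and Gjb6 chr14:57123303-57133611 in GRCm38, so the 2 connexins are on different chromosomes.

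**Figure D1:**
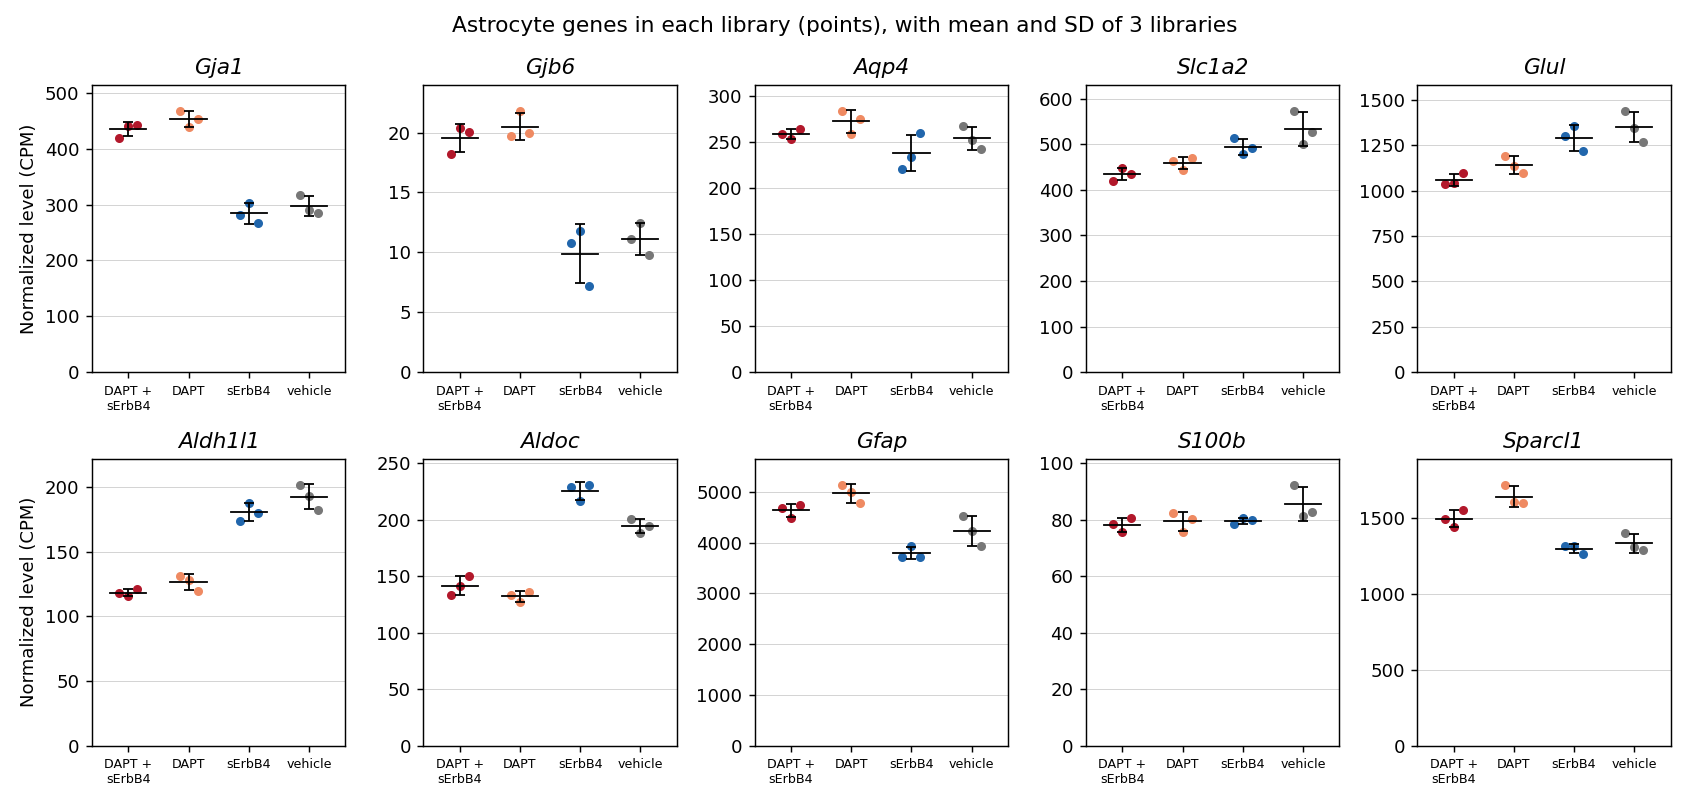
Normalized level of each of the 10 astrocyte genes (CPM, vertical axis starting at 0) in the 3 libraries of each group, with the mean (bar) and SD (error bar). Gja1 and Gjb6 are higher in both groups given DAPT than in both groups without it, Aldh1l1 and Aldoc are lower, and the groups overlap for Aqp4.

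A pair of the metabolic enzymes were lower. Aldh1l1, the folate enzyme 10-formyltetrahydrofolate dehydrogenase and a general astrocyte marker, had 131, 128 and 119.6 CPM in DAPT, against 202, 193 and 182 CPM in vehicle. This was a log2 fold change of -0.61 ± 0.05 (-0.71 to -0.50, edgeR adjusted p = 6.7e-06). Aldoc, the aldolase isozyme of brain glycolysis, had 134, 127 and 136 CPM in DAPT, against 200.1, 188 and 195 CPM in vehicle. Its log2 fold change was -0.56 ± 0.05 (-0.66 to -0.45, edgeR adjusted p = 1.2e-05). For both genes all DAPT libraries lay below all vehicle libraries, so the 10 astrocyte genes did not move together. In bulk RNA, fewer cells of a type and less RNA per cell cannot be told apart.

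A gene was called where the adjusted p was under 0.05 and the level of one group exceeded that of the other by more than 25%. With DAPT against vehicle, 2 of the 10 genes were called higher, with a background of 4.66% of all tested genes, and 2 were called lower, with a background of 6.92%. On the adjusted p alone, without the fold limit, 4 were higher (10.3% of all genes) and 4 lower (13.3%). The groups did not overlap for 8 of the 10, against 41.1% of all genes. Over the 10 genes the median log2 fold change was 0.00, and over all genes tested it was 0.01.

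Gfap and Sparcl1 were higher by less than the fold limit. Gfap, the filament protein that astrocytes raise when they become reactive, had 5137, 5001 and 4774 CPM in DAPT, against 4525, 4220 and 3941 CPM in vehicle. Its log2 fold change was 0.23 ± 0.05 (0.13 to 0.34, edgeR adjusted p = 0.0039), and it passed the fold limit under limma (0.35) and with scaling to library size alone (0.43). Sparcl1, also named hevin, is secreted by astrocytes and promotes the formation of excitatory synapses in mouse. It had 1716, 1604 and 1595 CPM in DAPT, against 1400.4, 1309 and 1284 CPM in vehicle, a log2 fold change of 0.30 ± 0.04 (0.21 to 0.39, edgeR adjusted p = 0.00039). At 1.23-fold Sparcl1 lay just under the fold limit, and it passed the limit without vehicle replicate 1 (0.34), without DAPT replicate 3 (0.33), under limma (0.40) and with scaling to library size alone (0.50, all on the log2 scale). In both genes every DAPT library exceeded every vehicle library.

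Slc1a2 and Glul, the uptake and the conversion of glutamate, were lower by less than the fold limit. Slc1a2 encodes GLT-1, the main glutamate transporter of forebrain astrocytes. It had 463, 445 and 469.9 CPM in DAPT, against 573, 500.1 and 527 CPM in vehicle, with a log2 fold change of -0.22 ± 0.05 (-0.33 to -0.11, edgeR adjusted p = 0.0085). Glul encodes glutamine synthetase. It had 1192, 1133 and 1095 CPM in DAPT, against 1438, 1344 and 1270.2 CPM in vehicle, with a log2 fold change of -0.24 ± 0.05 (-0.36 to -0.13, edgeR adjusted p = 0.0059). The groups did not overlap in either gene. With scaling to library size alone, in place of TMM, both values came closer to 0 (-0.01 for Slc1a2 and -0.05 for Glul) and neither passed the adjusted p, nor did they under limma (-0.13, adjusted p = 0.19, for Slc1a2 and -0.15, adjusted p = 0.064, for Glul).

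Aqp4 and S100b did not pass the test. Aqp4, the water channel of astrocyte endfeet, had 284, 258 and 275 CPM in DAPT, against 267, 252 and 242 CPM in vehicle. The log2 fold change was 0.10 with a 95% interval of -0.03 to 0.23 (edgeR adjusted p = 0.26). S100b had 82.3, 75.6 and 80.1 CPM in DAPT, against 92.3, 81.4 and 82.8 CPM in vehicle, a log2 fold change of -0.11 with an interval of -0.22 to 0.01 (edgeR adjusted p = 0.16). The groups overlapped in both genes. Both intervals leave out changes beyond the fold limit.

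**Figure D2:**
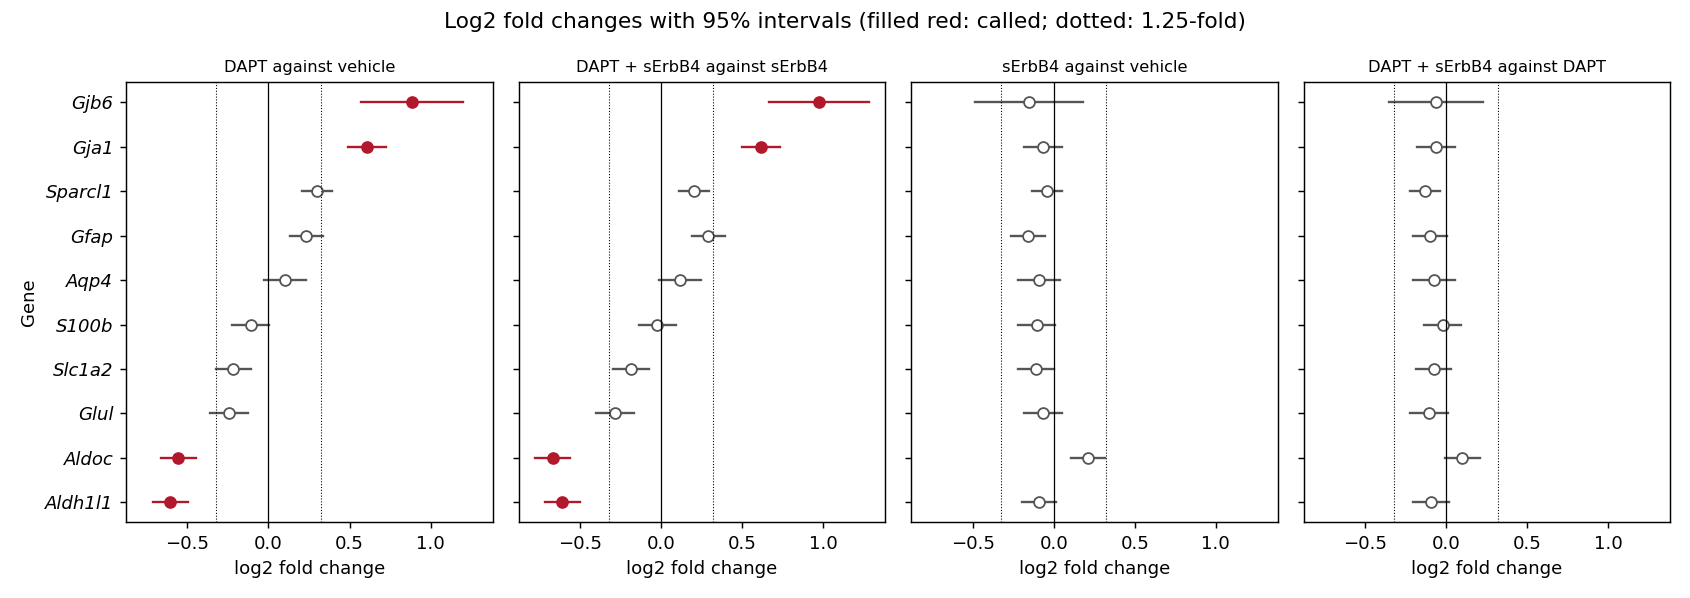
Log2 fold change of each gene (horizontal axis) with its 95% interval in 4 comparisons. Filled red points passed the adjusted p and the fold limit, which is drawn dotted. The same 4 genes are filled in both DAPT comparisons, and no gene is filled in the 2 comparisons of sErbB4.

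The same 4 genes were called when sErbB4 was present, in 6 libraries that are not part of the comparison above. With DAPT + sErbB4 against sErbB4, 2 of the 10 genes were called higher (4.55% of all genes tested) and 2 lower (7.15%). On the adjusted p alone, 4 were higher (11.1%) and 4 lower (13.5%), and these were the same 8 genes in the same directions. Groups did not overlap for 8 of the 10, against 38.7% of all genes. Without sErbB4 replicate 1 the calls were again 2 higher and 2 lower.

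Gja1 had 419.8, 441 and 443 CPM in DAPT + sErbB4, against 281, 304 and 267 CPM in sErbB4. The log2 fold change was 0.61 ± 0.05 (edgeR adjusted p = 9.7e-06). Gjb6 had 18.2, 20.4 and 20.1 CPM in DAPT + sErbB4, against 10.7, 11.8 and 7.16 CPM in sErbB4. Both connexins were thus well separated, and the Gjb6 value of 7.16 CPM in sErbB4 replicate 3 was the lowest of all libraries. The Gjb6 log2 fold change was 0.97 ± 0.14 (edgeR adjusted p = 0.00043), and it was 0.79 without that library.

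Aldh1l1 had 118, 115 and 121 CPM in DAPT + sErbB4, against 174, 188 and 179.8 CPM in sErbB4, a log2 fold change of -0.61 ± 0.05 (edgeR adjusted p = 5.5e-06). Aldoc had 133, 141 and 150.02 CPM in DAPT + sErbB4, against 229, 216 and 231 CPM in sErbB4, a log2 fold change of -0.67 ± 0.05 (edgeR adjusted p = 2.7e-06). The groups of both genes did not overlap. In both comparisons these enzymes were therefore lower in every library with DAPT than in every library without it.

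The genes that passed only the adjusted p were again Gfap, Sparcl1, Slc1a2 and Glul. Gfap had 4682, 4492 and 4737 CPM in DAPT + sErbB4, against 3719, 3926 and 3723 CPM in sErbB4 (log2 fold change 0.29 ± 0.05, edgeR adjusted p = 0.00092). Sparcl1 had 1488, 1441 and 1551 CPM in DAPT + sErbB4, against 1312, 1313 and 1261 CPM in sErbB4 (0.21 ± 0.04, edgeR adjusted p = 0.0043). All libraries with DAPT were above those without it in these 2 genes. Slc1a2 had 420.3, 448 and 436 CPM in DAPT + sErbB4, against 514, 479 and 492 CPM in sErbB4 (-0.19 ± 0.05, edgeR adjusted p = 0.018). Glul had 1035, 1044 and 1098 CPM in DAPT + sErbB4, against 1299, 1355 and 1217 CPM in sErbB4 (-0.29 ± 0.05, edgeR adjusted p = 0.0023), and it passed the fold limit as well without sErbB4 replicate 3 (-0.33) and with scaling to library size alone (-0.35). In both genes of glutamate handling every DAPT + sErbB4 library lay below every sErbB4 library. Slc1a2 lost the adjusted p without sErbB4 replicate 1 (0.055), without DAPT + sErbB4 replicate 1 (0.073), under limma (0.19) and with scaling to library size alone (0.14). That scaling also left Gfap (adjusted p = 0.079) and Sparcl1 (adjusted p = 0.38) short of the threshold, while under limma Gfap passed the fold limit as well (0.37, log2 scale). Aqp4 had 258, 254 and 264 CPM in DAPT + sErbB4, against 221, 234 and 259 CPM in sErbB4 (0.12, interval -0.01 to 0.25, edgeR adjusted p = 0.18). S100b had 78.3, 75.7 and 80.5 CPM in DAPT + sErbB4, against 78.4, 80.5 and 79.7 CPM in sErbB4 (-0.02, interval -0.14 to 0.09, edgeR adjusted p = 0.79). Over all 4 groups the means of S100b lay between 78.2 and 85.5 CPM, the narrowest relative range of the 10 genes.

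The difference between the DAPT effects with and without sErbB4 was tested directly as an interaction. In this test 0 of the 10 genes were called, and 0.00639% of all genes (1 gene) were. For the 10 genes the interaction on the log2 scale lay between -0.11 (Aldoc) and 0.09 (Gjb6), and each adjusted p was 1 in edgeR's test. For Gja1 the 95% interval of the difference was -0.16 to 0.17, for Gjb6 -0.35 to 0.53, for Aldh1l1 -0.16 to 0.15 and for Aldoc -0.26 to 0.04. None of the 10 genes had an unadjusted p under 0.05 here, and none was called by DESeq2 or limma. The interval was widest for Gjb6, the gene with the lowest counts, and it includes differences above the fold limit in either direction.

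**Figure D3:**
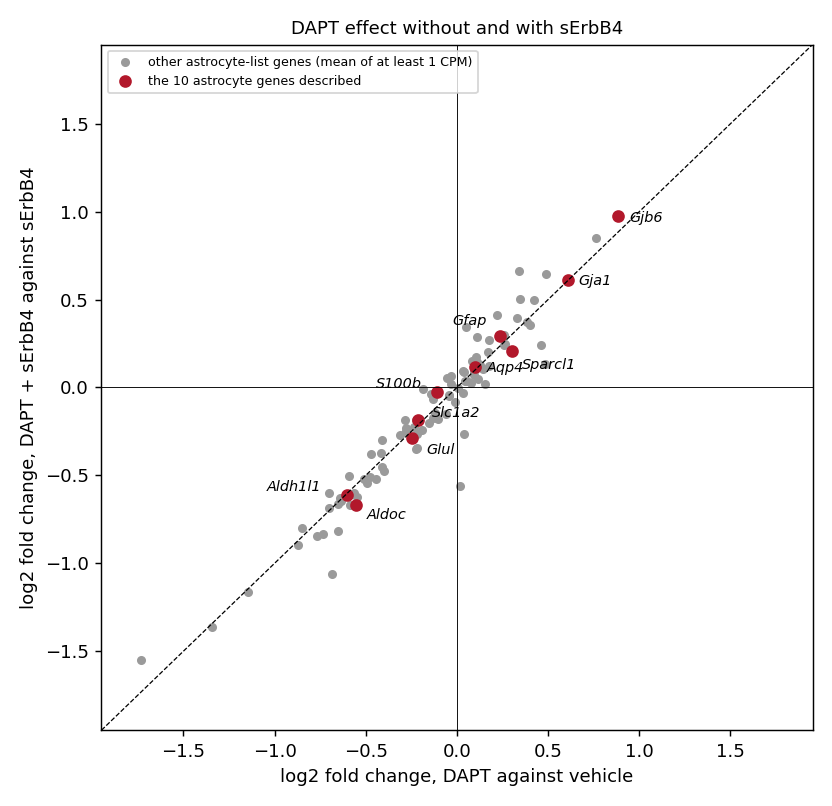
Log2 fold change of DAPT against vehicle (horizontal axis) and of DAPT + sErbB4 against sErbB4 (vertical axis), which use different libraries. Red points are the 10 astrocyte genes, grey points the genes of the other astrocyte lists that averaged 1 CPM or more, and the dashed line marks equal values. Gja1 (0.61 and 0.61) and Aldh1l1 (-0.61 and -0.61) lie on that line.

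sErbB4 alone for 4 h changed none of the 10 genes beyond the thresholds. With sErbB4 against vehicle 0 of the 10 were called, and 0.0319% of all genes (5 genes) were. Aldoc came nearest, with 229, 216 and 231 CPM in sErbB4 and 200.1, 188 and 195 CPM in vehicle. These groups did not overlap, the log2 fold change was 0.21 ± 0.05, and the unadjusted p of 0.00108 became 0.38 after adjustment over all genes in edgeR. Under DESeq2 its adjusted p was 0.010 at a log2 fold change of 0.21, which is under the fold limit. The other 9 genes had log2 fold changes below 0, among them Gja1 (-0.07, interval -0.18 to 0.05) and Gjb6 (-0.15, interval -0.48 to 0.18). The largest of these in size was that of Gfap, with 3719, 3926 and 3723 CPM in sErbB4 and 4525, 4220 and 3941 CPM in vehicle (-0.16, edgeR adjusted p = 0.51). Groups did not overlap for 3 of the 10 (Aldoc, Gfap and S100b), against 10.8% of all genes. Over all genes tested, 7686 of 15656 were above 0. Aldoc was the only one of the 10 above 0. At library size scaling alone 8 of the 10 genes were above 0, and the median of all genes was then 0.13 on the log2 scale.

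The same held with DAPT present. With DAPT + sErbB4 against DAPT, 0 of the 10 genes were called, and the background was 0% of all genes by edgeR, which gave 1442 genes an unadjusted p under 0.05, while DESeq2 called 8 genes and limma 1, none of them among the 10. Sparcl1 had 1488, 1441 and 1551 CPM in DAPT + sErbB4 and 1716, 1604 and 1595 CPM in DAPT (log2 fold change -0.13, edgeR adjusted p = 0.39). Aldoc was again the only gene of the 10 above 0, at 133, 141 and 150.02 CPM in DAPT + sErbB4 and 134, 127 and 136 CPM in DAPT (0.10, edgeR adjusted p = 0.58). Its groups overlapped, and its value was below 0 (-0.04) with scaling to library size alone. Over all genes tested, 7928 of 15656 were above 0. Groups did not overlap for 2 of the 10 (Gfap and Sparcl1), against 19% of all genes. These 2 comparisons share no library with each other.

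DAPT was also set against sErbB4, a comparison that shares its DAPT and sErbB4 libraries with those above. In it 4 of the 10 genes were called higher (4.05% of all genes) and 2 lower (6.04%). Gfap (0.39, edgeR adjusted p = 0.00013) and Sparcl1 (0.34, adjusted p = 0.00017) passed the fold limit beside Gja1 (0.68) and Gjb6 (1.04). Aldh1l1 (-0.51) and Aldoc (-0.77) were lower. The Sparcl1 call was lost without sErbB4 replicate 3 (0.32) and without DAPT replicate 1 (0.31).

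Mean levels give each gene's order over the groups (SD, n = 3). Gja1 averaged 435 ± 12.9 CPM in DAPT + sErbB4, 454 ± 14.0 in DAPT, 284 ± 18.4 in sErbB4 and 297 ± 17.4 in vehicle, so that DAPT stood highest and sErbB4 lowest. Gjb6 had the same order, with 19.6 ± 1.17 CPM in DAPT + sErbB4, 20.5 ± 1.14 in DAPT, 9.90 ± 2.44 in sErbB4 and 11.1 ± 1.34 in vehicle. Aldh1l1 averaged 118 ± 3.05 CPM in DAPT + sErbB4, 126 ± 5.96 in DAPT, 180.5 ± 7.00 in sErbB4 and 192 ± 9.56 in vehicle, an order that runs upward without an exception. Aldoc had another order, with 142 ± 8.32 CPM in DAPT + sErbB4, 132 ± 4.72 in DAPT, 225 ± 7.96 in sErbB4 and 194 ± 5.89 in vehicle, so that DAPT stood lowest and sErbB4 highest. In all 4 genes the groups that differ only in sErbB4 were neighbours in this order and did not pass edgeR's test, and the gap lay between the groups with and without DAPT. Replicate spread was small for most genes, with the largest coefficient of variation, 24.6%, for Gjb6 in sErbB4.

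Ratios of genes within a library do not depend on the scaling between libraries. They were chosen after the values were seen and are given as a description. The ratio of Gja1 to Aldh1l1 was 3.57, 3.42 and 3.79 in DAPT, against 1.57, 1.505 and 1.56 in vehicle, and averaged 3.68 ± 0.140 in DAPT + sErbB4, against 1.57 ± 0.0765 in sErbB4 (SD, n = 3). The cultures with DAPT thus held more connexin 43 transcript for each Aldh1l1 transcript in every library. Gfap per Aldh1l1 averaged 39.4 ± 0.492 in DAPT, against 22.0 ± 0.432 in vehicle, and 39.2 ± 0.368 in DAPT + sErbB4, against 21.0 ± 0.355 in sErbB4. The ratio of Gja1 to Slc1a3, a further astrocyte glutamate transporter, was 0.761 ± 0.0107 in DAPT, against 0.374 ± 0.0130 in vehicle. In contrast, the ratio of Glul to Slc1a2 was 2.48 ± 0.134 in DAPT, against 2.54 ± 0.140 in vehicle, and its groups overlapped. Astrocyte genes therefore changed relative to each other in some pairs, while that of Glul to Slc1a2 stayed within the spread of its groups. Some ratios also separated groups that differ only in sErbB4. That of Sparcl1 to Aldoc was 6.594 to 6.998 in vehicle, against 5.464 to 6.076 in sErbB4. It was 11.72 to 12.85 in DAPT, against 10.18 to 11.15 in DAPT + sErbB4. The ratio of Aldoc to Aldh1l1 was 0.977 to 1.067 in vehicle, against 1.151 to 1.316 in sErbB4. Its groups overlapped with DAPT present. That of Gfap to Aldh1l1 was 21.6 to 22.45 in vehicle, against 20.7 to 21.39 in sErbB4, and also overlapped with DAPT present. That of Aldoc to Glul was 0.1391 to 0.1533 in vehicle, against 0.1595 to 0.1897 in sErbB4. It was 0.112 to 0.1243 in DAPT, against 0.1289 to 0.1367 in DAPT + sErbB4. That of Gja1 to Slc1a3 separated only with DAPT present, at 0.7508 to 0.7721 in DAPT, against 0.7769 to 0.7856 in DAPT + sErbB4. The ratio of Gja1 to Aldh1l1 overlapped between groups that differ only in sErbB4, with and without DAPT.

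**Figure D4:**
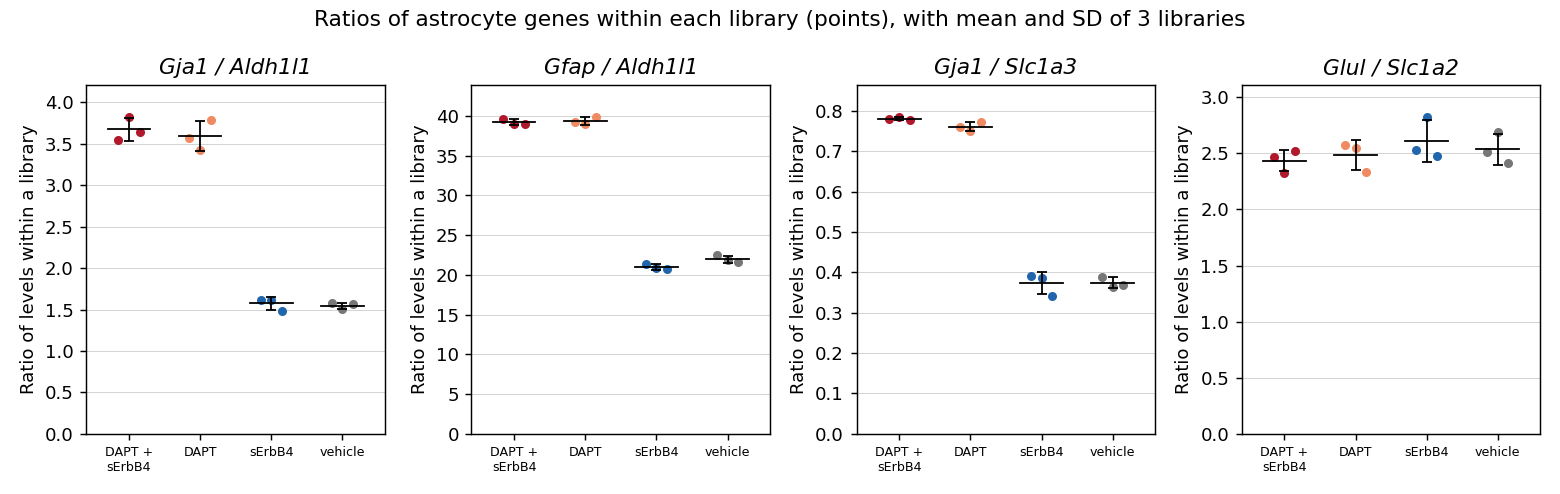
Ratios of the levels of astrocyte genes within each library (vertical axis starting at 0), with the mean (bar) and SD (error bar) of 3 libraries. The ratios of Gja1 to Aldh1l1, Gfap to Aldh1l1 and Gja1 to Slc1a3 separate the groups with DAPT from those without it, and the ratio of Glul to Slc1a2 does not.

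Similar profiles were looked up for each of the 4 genes called with DAPT against vehicle. The 3 most similar genes were taken from the 10886 that averaged 5 CPM or more. Likeness was the root mean square difference of log2 CPM over the 12 libraries, each gene centred on its own mean. Nearest to Gja1 were Slc38a1 (0.0439), a glutamine transporter, Gem (0.0555), a small GTPase, and Hsd17b11 (0.0586), a lipid droplet enzyme. Nearest to Gjb6 were Ucma (0.0956), Prodh (0.104), the first enzyme of proline breakdown, and Pcolce2 (0.143), an enhancer of procollagen processing. Acsbg1 (0.0327), an acyl-CoA synthetase, Slc6a11 (0.0356), the GABA transporter GAT-3, and Mmp15 (0.0387), a membrane metalloproteinase, were nearest to Aldh1l1. Eif4ebp1 (0.0718), a repressor of translation initiation, Dpf3 (0.0738), a chromatin remodelling subunit, and Tlcd1 (0.0755) were nearest to Aldoc. The closest match of all was that of Acsbg1 to Aldh1l1, both being genes of astrocytes. The genes near Gja1 had log2 fold changes of 0.45 to 0.63 with DAPT against vehicle, and those near Aldh1l1 of -0.60 to -0.56. They were picked for likeness over these same libraries, so values close to those of Gja1 and Aldh1l1 follow from the choice.

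Further astrocyte genes were read from lists chosen with earlier results of these data known, and they are described by counts. Ion and transmitter transport moved most uniformly. Of its 13 genes, 10 were called lower and 0 higher in both DAPT comparisons, and the median log2 fold change was -0.55 for DAPT against vehicle and -0.50 for DAPT + sErbB4 against sErbB4, against 0.01 over all genes in each. These 10 include the glutamate transporter Slc1a3, the potassium channels Kcnj10 and Kcnj16, and the GABA transporter Slc6a11. Slc38a3, a glutamine transporter, averaged 415 ± 20.4 CPM in DAPT and 758 ± 31.2 CPM in vehicle (-0.87 ± 0.06, edgeR adjusted p = 2.3e-06). With scaling to library size alone, 7 of the 13 were called lower with DAPT against vehicle. Slc1a2, with -0.22, moved less than the median of this list.

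The list of other connexins and pannexins was counted among the astrocyte lists, but it follows a gene family and not a cell type. Where its genes were called at all, they rose. Which cells carried these transcripts was not tested. With DAPT against vehicle 3 of 8 tested genes passed as higher and 0 as lower, and the list's median was 0.24. Panx2, a pannexin, averaged 15.4 ± 0.408 CPM in DAPT and 11.6 ± 0.761 CPM in vehicle (0.40 ± 0.08, edgeR adjusted p = 0.0041). Gjb2, connexin 26, averaged 6.24 ± 1.01 CPM in DAPT and 4.42 ± 0.307 CPM in vehicle (0.49 ± 0.13, edgeR adjusted p = 0.019). The count fell to 1 under some alternatives, and the Gjb2 call was lost without vehicle replicate 2 (adjusted p = 0.064), without vehicle replicate 3 (0.060) and without DAPT replicate 2 (0.071, all by edgeR). With DAPT + sErbB4 against sErbB4, 3 of 8 were higher, and 2 without sErbB4 replicate 1. Gjb2 and Panx2 were called in both comparisons, Gjd2 with DAPT against vehicle and Gjc3 with DAPT + sErbB4 against sErbB4.

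Of the 7 genes of the endfoot membrane complex, 0 were called in either DAPT comparison. The adhesion protein Hepacam averaged 137 ± 4.52 CPM in DAPT and 150.4 ± 7.01 CPM in vehicle (-0.13 ± 0.05, edgeR adjusted p = 0.064), and dystroglycan, Dag1, averaged 172 ± 3.78 CPM in DAPT and 185 ± 6.47 CPM in vehicle (-0.11 ± 0.04, edgeR adjusted p = 0.10). Both passed the adjusted p with DAPT + sErbB4 against sErbB4 but not the fold limit (Hepacam -0.17, adjusted p = 0.019, and Dag1 -0.17, adjusted p = 0.014, by edgeR). Metabolic genes were mixed, with 1 of 10 higher and 2 lower with DAPT against vehicle, and 1 higher and 3 lower with DAPT + sErbB4 against sErbB4 (4 lower without sErbB4 replicate 1). Acsl3, an acyl-CoA synthetase, averaged 182 ± 6.44 CPM in DAPT and 108 ± 1.70 CPM in vehicle (0.76 ± 0.06, edgeR adjusted p = 6.8e-06). Gys1, glycogen synthase, averaged 19.3 ± 0.957 CPM in DAPT and 31.3 ± 0.791 CPM in vehicle (-0.70 ± 0.05, edgeR adjusted p = 2.0e-06). Astrocyte metabolism thus had members on both sides, as the 10 genes did.

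Among secreted proteins of astrocytes, 4 of 11 were called lower and 0 higher in both DAPT comparisons. These were the synapse-promoting Thbs2, Gpc4 and Chrdl1, and the matrix protein Tnc. Thbs2 averaged 16.0 ± 0.900 CPM in DAPT and 28.9 ± 1.5 CPM in vehicle (-0.85 ± 0.06, edgeR adjusted p = 2.0e-06), and Tnc averaged 16.4 ± 0.649 CPM in DAPT and 24.6 ± 0.396 CPM in vehicle (-0.58 ± 0.05, edgeR adjusted p = 1.2e-05). They fell while Sparcl1, which is also secreted, had values above those of vehicle. Of 9 transcription factors, 1 was called lower and 0 higher in both DAPT comparisons, with 2 higher in DAPT + sErbB4 against sErbB4 without sErbB4 replicate 1. The one called lower was Stat3, with 61.3 ± 1.92 CPM in DAPT and 83.5 ± 2.07 CPM in vehicle (-0.45 ± 0.05, edgeR adjusted p = 3.7e-05), a call that was lost with scaling to library size alone (-0.25). Lhx2 (-0.24 ± 0.04, edgeR adjusted p = 0.0017) passed the adjusted p but not the fold limit.

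In a list of 24 genes tied to reactive astrocytes, 8 were called lower and 2 higher with DAPT against vehicle, and 8 lower and 3 higher with DAPT + sErbB4 against sErbB4 (2 higher without sErbB4 replicate 1). Lcn2, a secreted iron-siderophore binding protein, averaged 555 ± 26.4 CPM in DAPT and 1407 ± 129.5 CPM in vehicle (-1.34 ± 0.12, edgeR adjusted p = 1.0e-05). Steap4, a metalloreductase, averaged 10.1 ± 1.70 CPM in DAPT and 33.8 ± 2.97 CPM in vehicle (-1.73 ± 0.12, edgeR adjusted p = 2.6e-06). Their direction was opposite to that of Gfap, which is often read beside them. With scaling to library size alone, 3 of the 24 were called lower and 6 higher with DAPT against vehicle. Among 12 other astrocyte markers, 1 was higher (Ntsr2) and 3 lower with DAPT against vehicle. Of all 12, 6 had values above 0 and 6 below, with a median log2 fold change of -0.009. Their summed level was 3943 to 3998 CPM in DAPT, against 3603 to 3988 CPM in vehicle, ranges that overlap. Dio2, the enzyme that activates thyroid hormone, averaged 30.7 ± 0.596 CPM in DAPT and 68.0 ± 2.44 CPM in vehicle (-1.15 ± 0.05, edgeR adjusted p = 2.4e-08). Fgfr3, a growth factor receptor of the astrocyte lineage, averaged 51.3 ± 3.45 CPM in DAPT and 85.4 ± 1.06 CPM in vehicle (-0.74 ± 0.06, edgeR adjusted p = 6.9e-06).

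**Figure D5:**
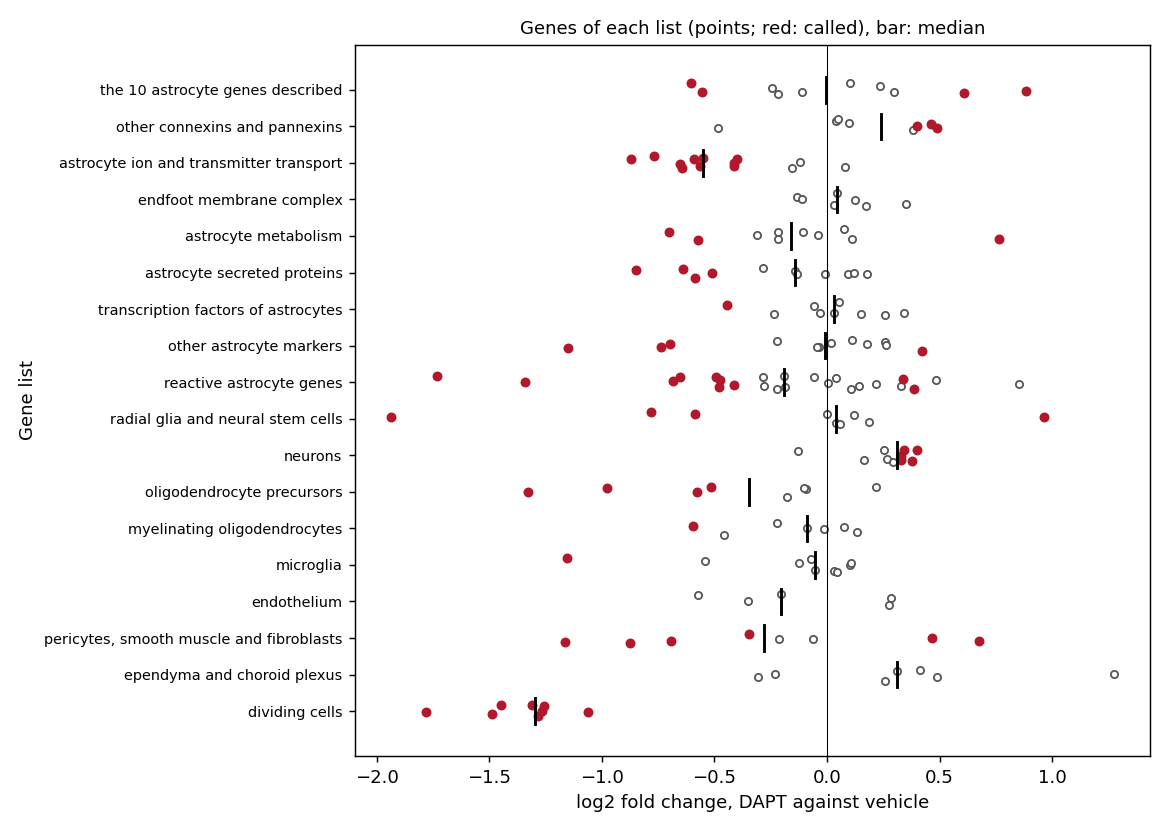
Log2 fold change of DAPT against vehicle (horizontal axis) for the genes of each list (rows). Points are genes, red where called, and the black bar is the median of the list. The 10 astrocyte genes spread to both sides of 0, 10 of 13 transport genes are called lower, and all 8 genes of dividing cells are called lower.

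Markers of other cell types also moved with DAPT, and their part in the changes of the astrocyte genes was not tested. All 8 genes of dividing cells were called lower in both DAPT comparisons, and their summed level was 26.7 to 29.6 CPM in DAPT, against 68.0 to 77.0 CPM in vehicle. Top2a averaged 6.94 ± 0.511 CPM in DAPT and 17.2 ± 1.13 CPM in vehicle (-1.31, edgeR adjusted p = 3.5e-07), and Mki67 averaged 4.79 ± 0.486 CPM in DAPT and 11.5 ± 1.05 CPM in vehicle (-1.26, edgeR adjusted p = 7.3e-06). Of 9 markers of radial glia and neural stem cells, 3 were lower and 1 higher with DAPT against vehicle, and the list's median log2 fold change was 0.04. The summed level was 2516 to 2645 CPM in DAPT, against 4417 to 4855 CPM in vehicle. The fall of the sum was that of 1 gene, Fabp7, a lipid chaperone found in radial glia and young astrocytes, with 748 ± 49.99 CPM in DAPT and 2860 ± 169.7 CPM in vehicle (-1.93, edgeR adjusted p = 3.4e-09). Fabp7 fell by more than the sum did, and by more than any of the 10 astrocyte genes.

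Of 8 markers of oligodendrocyte precursors, 4 were lower and 0 higher, with a summed level of 603 to 641 CPM in DAPT, against 1119 to 1134 CPM in vehicle. Olig2, the lineage factor, averaged 69.5 ± 2.04 CPM in DAPT and 137 ± 1.18 CPM in vehicle (-0.98, edgeR adjusted p = 9.7e-09). Neuronal markers went the other way. Of 10, 5 were called higher and 0 lower with DAPT against vehicle, and 2 higher with DAPT + sErbB4 against sErbB4 (1 without sErbB4 replicate 1). Their summed level was 1875 to 1950 CPM in DAPT, against 1576 to 1679 CPM in vehicle. Stmn2 (0.34, edgeR adjusted p = 0.00015), Snap25 (0.38, 0.00047) and Rbfox3 (0.33, 0.00053) were among those called. The Rbfox3 call was lost without vehicle replicate 1 (0.30), as was that of Stmn2 (0.32). With DAPT + sErbB4 against sErbB4 the Stmn2 call (0.35) was lost without sErbB4 replicate 1 (0.31) and with scaling to library size alone (0.29).

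The summed level of the 10 astrocyte genes was 9018 to 9625 CPM in DAPT, against 8018 to 9026 CPM in vehicle, ranges that overlap. It was 8472 to 8900 CPM in DAPT + sErbB4, against 7716 to 8107 CPM in sErbB4. The largest part of this sum was Gfap, which averaged 4970 CPM in DAPT and 4228 CPM in vehicle. Of 9 microglial markers, 1 was lower with DAPT against vehicle and 2 with DAPT + sErbB4 against sErbB4, and they summed to 102.5 to 105.3 CPM in DAPT and 103 to 121 CPM in vehicle. Aif1, a defining microglial marker, averaged 1.33 ± 0.420 CPM in DAPT and 1.36 ± 0.312 CPM in vehicle. It had 1.09, 1.01 and 0.604 CPM in DAPT + sErbB4, against 2.17, 1.40 and 2.90 CPM in sErbB4 (-1.26 ± 0.34, edgeR adjusted p = 0.020), a call that was lost without sErbB4 replicate 3 (adjusted p = 0.081) and without DAPT + sErbB4 replicate 3 (0.078). Csf1r averaged 7.63 ± 0.745 CPM in DAPT and 7.08 ± 0.224 CPM in vehicle. Of 7 markers of myelinating oligodendrocytes, 1 was lower with DAPT against vehicle (Mag, -0.60, edgeR adjusted p = 0.0087), a call that was lost with scaling to library size alone (adjusted p = 0.069). None was called with DAPT + sErbB4 against sErbB4 (Mag -0.33, edgeR adjusted p = 0.10). Of 8 markers of pericytes, smooth muscle and fibroblasts, 4 were lower, Col1a1 among them (-0.69, edgeR adjusted p = 0.00025), and 2 were higher. Of 7 markers of ependyma and choroid plexus, 0 were called with DAPT against vehicle (Tmem212 0.31, edgeR adjusted p = 0.028), though Tmem212 passed the fold limit under 6 of 21 alternatives, without vehicle replicate 1 (0.39) among them. Rarres2 was called lower with DAPT + sErbB4 against sErbB4, and no gene of the list was without sErbB4 replicate 1. Endothelial markers were near the limit of detection, with 5 of 8 under 1 CPM and the 5 tested summing to at most 6.30 CPM in any library, and 0 were called in either DAPT comparison.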

How the data were processed

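RNA from 12 libraries was poly-A selected and sequenced as paired ends. Per the labels and the study's methods, the authors clipped reads (Trimmomatic), mapped them to mm10 (HISAT2) and built transcripts (StringTie), which may lie outside the annotation. FastQC, MultiQC and limma are also listed, without versions. The authors deposited estimated counts, one per gene and library, unscaled between libraries, and these were rounded to whole numbers before testing. Within a library, every value between 0 and 5 was a multiple of one fixed step (tolerance 0.01), which is what length-corrected abundances rescaled to the library total would give. The 1976 loci without a gene name (43.4 to 51.9% of a library's counts) were left out.

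The tools were edgeR 4.0.16, DESeq2 1.42.0 and limma 3.58.1 under R 4.3.3. After edgeR's filterByExpr and TMM scaling, 15656 genes were tested by quasi-likelihood F tests with 4 group means and 8 residual degrees of freedom, two-sided, adjusted by Benjamini-Hochberg over all of them. SEs were derived from the F statistic. Alternatives were other size factors, no filter, DESeq2, limma on log2(CPM + 2), unnamed loci kept, a replicate block, only the compared libraries, and each library left out. Library size scaling alone and leaving out Rn45s were added after seeing the data. The code was tested on simulated data. The 10 genes and all lists were chosen with earlier results of these data known. The named genes beyond the 10 were, per astrocyte list, the 2 genes, and per other list the first gene, with the smallest p for the mean DAPT effect among those averaging 5 CPM or more, plus defining markers and the nearest profiles. Other names listed within a called set, and the ratios, were chosen after their values were seen. Some genes that this rule or these lists hold are not reported here.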

Additional observations from a re-analysis of the deposited data

How the results depend on the processing

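The 4 calls of Gja1, Gjb6, Aldh1l1 and Aldoc held in both DAPT comparisons under all 21 alternatives, and in the interaction and both sErbB4 comparisons none of the 10 genes was called under any that could be fitted. With library size alone in place of TMM, the median of all genes moved to 0.21 (log2) with DAPT against vehicle, where 3210 genes were called (85.2% of them higher, against 40.3% in the main test of 1813), to 0.13 with sErbB4 against vehicle, to -0.13 with DAPT + sErbB4 against DAPT and to -0.26 in the interaction, so values under this scaling are to be read relative to these shifts. Of called genes, 20.0% were then higher with DAPT + sErbB4 against sErbB4 (38.9% in the main test), 54.6% with DAPT against sErbB4 (40.2%), and 60.5% for the mean DAPT effect (42.1%). Under this scaling the sign turned, on the log2 scale, with DAPT against vehicle for S100b (0.0941), Hepacam (0.0649), Dag1 (0.0885) and Aif1 (0.136), for S100b in the mean DAPT effect (0.00274) and with DAPT against sErbB4 (0.0697), with sErbB4 against vehicle for Gja1 (0.0641), Aqp4 (0.0337), Slc1a2 (0.0229), Aldh1l1 (0.0371), S100b (0.0244), Glul (0.0644) and Sparcl1 (0.0912), with DAPT + sErbB4 against DAPT for Aldoc (-0.0366), and in the interaction for Gja1 (-0.26), Gjb6 (-0.17), Aqp4 (-0.25), Slc1a2 (-0.24), Gfap (-0.20) and S100b (-0.18). Interaction values near 0 also turned for Gja1 with DESeq2's size factors (-0.000712), DESeq2 (-0.000649), limma (-0.0223), unnamed loci kept (-0.0202) and Rn45s left out (-0.0120), and for Aqp4 with limma (-0.00794), unnamed loci kept (-0.00863) and Rn45s left out (-0.000438). S100b with DAPT against sErbB4 turned with DESeq2 (0.000312), limma (0.0338), unnamed loci kept (0.00673) and Rn45s left out (0.00326). The cause of these turns was not tested.

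Counts of called genes over the whole table moved most where they were small. For sErbB4 against vehicle they were 5 in the main test, 18 with DESeq2, 0 in a fit of the compared libraries alone, 1 with library size alone and 1 to 5 with a library left out. For DAPT + sErbB4 against DAPT they were 0 in the main test, 8 with DESeq2, 1 with limma, 2 in a fit of the compared libraries alone and 0 to 2 with a library left out. The interaction called 1 gene, 4 with DESeq2 and 1 to 3 with a library left out, and limma called 1370 genes for the mean DAPT effect, against 2072. Leaving out 1 library moved the log2 values of S100b with DAPT against sErbB4 between -0.0254 and 0.0297 and with DAPT + sErbB4 against DAPT between -0.0553 and 0.00174, those of Gjb6 with sErbB4 against vehicle between -0.309 and 0.0271, and those of Aif1 with DAPT against vehicle between -0.27 and 0.20. Interaction values lay between -0.0436 and 0.0564 for Gja1, -0.0904 and 0.245 for Gjb6, -0.0341 and 0.0826 for Aqp4, -0.0248 and 0.0745 for Slc1a2, -0.0614 and 0.0335 for Aldh1l1, and -0.0883 and 0.00247 for Glul.

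Replicate numbers were not shown to pair the libraries: over 18 pairs with the same number, deviations from the group means had r from -0.624 to 0.556 (median 0.0276), 8 were over 0.1, and 5 of 12 libraries were closest to one with their own number. With replicate number as a block, 1750 genes were called with DAPT against vehicle and 2 with sErbB4 against vehicle, and the block changed no call among the 10 genes. Gjb6, at 7.16 to 21.8 CPM, has the least depth of the 10, and a count of 0 would allow up to 0.169 CPM in the shallowest library (counting error only).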
